A study of Homo sapiens with 12 samples.

Results

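The genes described here are 10 components of Wnt and beta-catenin signalling, the pathway that maintains barrier traits in brain endothelium. They were taken by symbol from the 23398 gene entries of the deposited table, with no cut on their values, and all 10 were found. The set was, however, chosen with earlier results of these data known. By role they are the receptors FZD4 and FZD6, the co-receptors LRP5 and LRP6, beta-catenin itself (CTNNB1), the transcription factors LEF1 and TCF7L2, and the targets and inhibitors AXIN2, APCDD1 and DKK1. The libraries are of messenger RNA from human brain microvascular endothelial cells (HBMEC), bought from a supplier and grown in that supplier's complete medium. Every group was transfected with siRNA for 48 h. The 4 groups were non-silencing siRNA in control medium (n = 3), siGlut1 in control medium (n = 3), non-silencing siRNA in high glucose (n = 2) and siGlut1 in high glucose (n = 3). siGlut1 targets SLC2A1, which encodes the glucose transporter Glut1. The sources used here do not give the glucose concentrations or the length of the glucose treatment. They also do not say that replicates were separate cultures, so the p-values cover the spread of these libraries only, and that spread may be technical.

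Wnt ligands bind a Frizzled receptor together with LRP5 or LRP6, and this binding inhibits the destruction complex, of which AXIN2 is a scaffold, that marks beta-catenin for degradation. Beta-catenin then accumulates and activates target genes with the DNA-binding factors of the TCF and LEF family. In brain endothelium the pathway is required for the blood-brain barrier: FZD4 with LRP5 or LRP6 carries the Norrin signal, SLC2A1 is among the genes the pathway maintains, and AXIN2, APCDD1 and DKK1 are targets whose products restrain the signal. Beta-catenin also joins cadherins to the cytoskeleton at cell junctions, and its activity is set largely at the protein level, which RNA counts do not measure.

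Total deposited counts per library ran from 40135082 to 90536476 (median 49686182), and every count was even, so that 1 read pair appears to stand as 2 counts. A 12th column, replicate 2 of the non-silencing group in high glucose, was left out because 23397 of its 23398 entries are the average of replicates 1 and 3. SLC2A1 lay between 20.7 and 25.7 CPM (counts scaled to a common library size) in the 5 non-silencing libraries and between 6.26 and 9.05 CPM in the 6 siGlut1 libraries. All 14 endothelial markers were detected well enough to be tested, with CDH5 at a mean of 393 RPKM (the deposited level, scaled for gene length and library size) and PECAM1 at 193 RPKM. The markers of other cell types gave a mixed picture. AQP4 (astrocytes) and CDH1 (epithelium) had 0 counts, PTPRC (leukocytes) averaged 0.00506 RPKM and PDGFRB (pericytes) 0.0276 RPKM, while other genes of the same lists were abundant: RGS5 and ANPEP, listed for pericytes, averaged 243 and 430 RPKM, KRT18, listed for epithelium, 162 RPKM, GJA1, listed for astrocytes, 118 RPKM and CD68, listed for leukocytes, 26.3 RPKM.

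The members covered a wide range of levels. CTNNB1 was highest at 117 ± 6.52 RPKM (mean and SD over 11 libraries), followed by FZD4 at 52.7 ± 7.23, DKK1 at 37.1 ± 8.88, FZD6 at 25.1 ± 1.95 and LRP5 at 21.1 ± 3.66 RPKM. LRP6 and TCF7L2 followed at 3.87 ± 0.428 and 3.79 ± 0.371 RPKM, AXIN2 at 0.571 ± 0.163 RPKM and APCDD1 at 0.113 ± 0.130 RPKM. LEF1 was at the bottom, with 6 counts in all 11 libraries together. The ranges over libraries overlapped for FZD4 and DKK1, for DKK1 and FZD6, for FZD6 and LRP5, for LRP6 and TCF7L2, for AXIN2 and APCDD1, and for APCDD1 and LEF1. They did not overlap between CTNNB1 and FZD4, between LRP5 and LRP6, or between TCF7L2 and AXIN2. Among the members, CTNNB1, FZD4, DKK1, FZD6 and LRP5 were thus far above LRP6, TCF7L2, AXIN2, APCDD1 and LEF1 on the per-length scale. This division followed role only in part. Each side held a co-receptor and a target, while both receptors and CTNNB1 were on the upper side. Both transcription factors were on the lower side. Where groups differ in a bulk sample, fewer cells expressing a gene and less RNA per cell cannot be told apart.

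**Figure D1:**
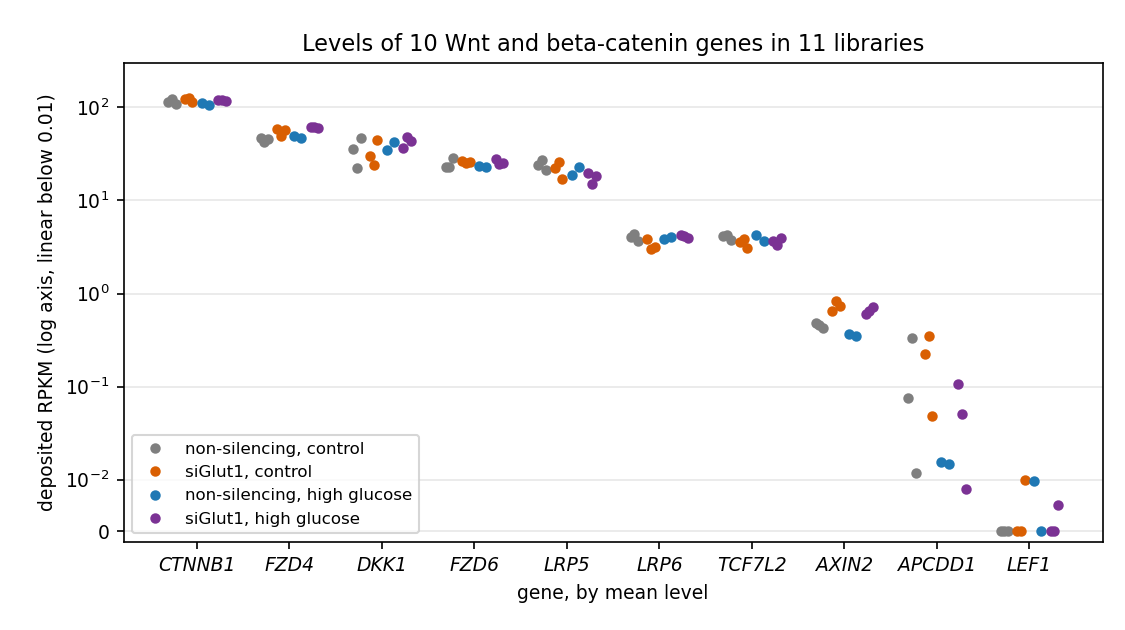
Deposited RPKM of the 10 genes (log axis, linear below 0.01) in each of the 11 libraries, coloured by group and ordered by mean level. CTNNB1 sits between 107 and 126 RPKM, AXIN2 between 0.348 and 0.840 RPKM, and LEF1 is at 0 in 8 libraries.

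Promoter sequence is shown for FZD4, a member that rose with siGlut1, and for DKK1, the member whose promoter window held matches to the TCF and LEF core. The windows come from RefSeq (GRCh38.p14) and run from 250 bases before to 50 bases after a start site listed for the gene. These start sites were not matched to the hg19 gene models counted here. The table held them for 7 of the 10 members, not for AXIN2, LRP6 or FZD6. The core was searched on both strands in 4 forms. It was searched as CTTTGAT or as CTTTGAA, and likewise as CTTTGTT or as CTTTGTA. The 250 bases before the start are printed 5′ to 3′ on the gene's strand, FZD4 at chr11:86955396-86955645 (minus strand) and DKK1 at chr10:52314031-52314280 (plus strand), with matches in capitals.
FZD4: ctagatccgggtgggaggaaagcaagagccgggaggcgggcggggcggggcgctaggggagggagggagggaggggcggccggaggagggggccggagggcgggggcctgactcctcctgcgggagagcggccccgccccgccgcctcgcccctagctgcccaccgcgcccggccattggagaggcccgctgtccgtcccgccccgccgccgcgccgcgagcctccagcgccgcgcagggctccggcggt
DKK1: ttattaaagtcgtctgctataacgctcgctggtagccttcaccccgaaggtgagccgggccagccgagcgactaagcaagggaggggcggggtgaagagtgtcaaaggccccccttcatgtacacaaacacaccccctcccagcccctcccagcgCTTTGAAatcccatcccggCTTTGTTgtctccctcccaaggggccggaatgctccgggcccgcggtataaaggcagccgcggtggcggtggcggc
DKK1 had CTTTGAA with its first base 95 bases before the start and CTTTGTT 76 bases before it. The windows of FZD4, LRP5, CTNNB1, LEF1, TCF7L2 and APCDD1 had 0 matches. Of all 27305 promoter windows in the table, 13.9% held a match, and of the 9879 windows of genes tested here, 8.64% did. A match describes letters in the window and is not a measured binding site.

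With siGlut1, 2 of the 9 members that could be tested rose, AXIN2 and FZD4, and they did so in control medium and in high glucose. AXIN2, the negative-feedback scaffold that is widely read as a marker of beta-catenin transcription, was 1.65-fold higher in control medium and 1.88-fold higher in high glucose. FZD4, the Norrin receptor, was 1.24-fold and 1.30-fold higher. No member fell. Across all 14334 genes tested, 2.96% passed the threshold (adjusted p under 0.05) in control medium and 4.11% in high glucose, and 1.7% and 2.46% rose. The p-values come from the quasi-likelihood test of edgeR and were adjusted by the Benjamini-Hochberg method over all genes. Fold changes given below are log2 values ± standard error (SE). The median log2 fold change of the 9 members was 0.08 in control medium and 0.18 in high glucose, beside -0.00658 and -0.000497 over all genes tested. These medians are the values of FZD6 in control medium and DKK1 in high glucose, neither of which passed. A shift of the members as a set was not tested.

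FZD4 encodes the Frizzled receptor that binds Norrin and, with co-receptors, transmits Wnt signals in brain endothelium (chromosome 11, 86656717 to 86666440 in the deposited hg19 coordinates). In control medium it measured 361.7, 335.9 and 352.4 CPM in non-silencing libraries 1, 2 and 3, and 471.6, 387.9 and 445.0 CPM in siGlut1 libraries 1, 2 and 3. In high glucose it measured 376.2 and 363.0 CPM in non-silencing libraries 1 and 3, and 483.7, 482.6 and 477.2 CPM in siGlut1 libraries 1, 2 and 3. All 6 siGlut1 libraries were above all 5 non-silencing libraries, a separation that 4.84% of the genes tested showed, and siGlut1 control 2 was the lowest of the 6. The log2 fold change was 0.31 ± 0.07 in control medium (adjusted p = 0.0467) and 0.38 ± 0.08 in high glucose (adjusted p = 0.0302). Averaged over both media it was 0.35 ± 0.06 (adjusted p = 0.00247), where 14.4% of genes passed and 7.93% rose. In high glucose, the fold changes with siGlut1 rose with the length of the gene model over the 14334 genes (Spearman's rho 0.237 across genes, which are not independent replicates, against -0.06 in control medium), and with that trend removed FZD4 changed by 0.28 with an adjusted p of 0.0639. The rise of FZD4 with siGlut1 in control medium also missed the threshold without any 1 of 10 of the 11 libraries (log2 fold change 0.25 to 0.34, adjusted p 0.0686 to 0.161, passing only without siGlut1 control 2), and that in high glucose without any 1 of the 5 high-glucose libraries (0.35 to 0.41, adjusted p 0.0751 to 0.215).

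AXIN2 lies on chromosome 17 (63524683 to 63557740, hg19). In control medium it measured 2.18, 2.07 and 1.85 CPM in non-silencing libraries 1, 2 and 3, and 2.98, 3.797 and 3.26 CPM in siGlut1 libraries 1, 2 and 3. In high glucose it measured 1.63 and 1.54 CPM in non-silencing libraries 1 and 3, and 2.71, 2.92 and 3.26 CPM in siGlut1 libraries 1, 2 and 3. Again all 6 siGlut1 libraries were above all 5 non-silencing ones, and AXIN2 and FZD4 were the only members that separated so. These levels rest on 39 to 149 read pairs per library, a counting error of 8.19% to 16.0%. The log2 fold change was 0.72 ± 0.15 in control medium (adjusted p = 0.0315), 0.91 ± 0.18 in high glucose (adjusted p = 0.0218) and 0.82 ± 0.12 averaged over both (adjusted p = 0.00153). The change in high glucose exceeded that in control medium by 0.18 (95% interval -0.33 to 0.70, adjusted p = 0.999), so a difference between media was not shown. The rise of AXIN2 in control medium missed the threshold when any 1 of the 6 control libraries was left out, and likewise non-silencing high 1 or the siGlut1 high library numbered 3 (0.62 to 0.80, adjusted p 0.0503 to 0.119). That in high glucose missed it when either non-silencing high library, or siGlut1 high 2 or 3, was left out (0.83 to 0.95, adjusted p 0.0665 to 0.175).

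The averaged changes of AXIN2 and FZD4 stayed past the threshold in each of 20 alternative analyses, which include leaving out each library in turn. AXIN2 ranged from 0.76 to 0.85 (adjusted p at most 0.0121) and FZD4 from 0.31 to 0.38 (adjusted p at most 0.0203). Among the 1136 genes that rose on average, AXIN2 ranked 147th and FZD4 581st by size of change, so neither stood at the head of the response to siGlut1.

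**Figure D2:**
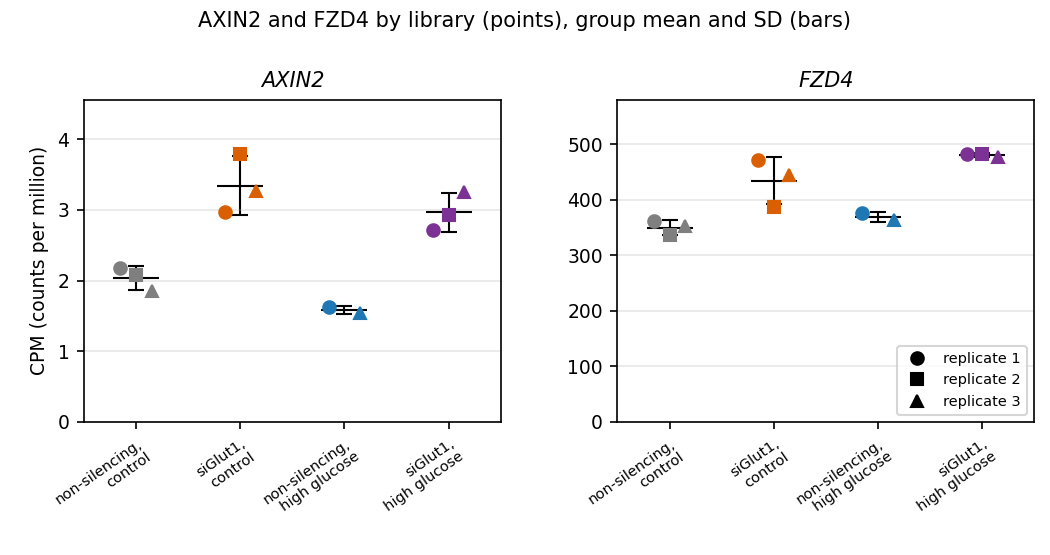
CPM of AXIN2 and FZD4 by library (points, marker shape by replicate number), with the group mean and SD (bars, n = 3, with n = 2 in the non-silencing high-glucose group). The 6 siGlut1 libraries lie at 2.71 to 3.797 CPM for AXIN2, above the 1.54 to 2.18 CPM of the non-silencing ones, and at 387.9 to 483.7 CPM against 335.9 to 376.2 CPM for FZD4.

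FZD6, a Frizzled receptor better known for planar polarity signalling, varied little. It measured 102.1 ± 11.03 CPM with non-silencing siRNA and 108.0 ± 3.09 CPM with siGlut1 in control medium (SD, n = 3 each), and 95.9 ± 1.52 (n = 2) against 108.6 ± 8.25 CPM (n = 3) in high glucose. Both non-silencing libraries in high glucose were below all 3 siGlut1 libraries, as such groups did not overlap for 44.5% of the genes tested, and the log2 fold change of 0.18 ± 0.09 did not pass (adjusted p = 0.308). Averaged over both media FZD6 changed by 0.13 ± 0.06 (adjusted p = 0.194), and that change passed in 1 of 20 alternative analyses. The Frizzled receptor FZD4 thus had a call with siGlut1 that FZD6 lacked in the fit reported, and whether their changes differ was not tested.

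LRP5 and LRP6 are single-pass co-receptors that are phosphorylated when a Wnt binds. In control medium LRP6 measured 43.4, 47.6 and 38.5 CPM with non-silencing siRNA (replicates 1, 2 and 3) and 41.6, 32.8 and 33.7 CPM with siGlut1. In high glucose it measured 41.0 and 42.8 CPM with non-silencing siRNA and 46.2, 44.0 and 42.2 CPM with siGlut1. The groups overlapped in both media. The log2 fold change with siGlut1 was -0.26 ± 0.10 in control medium (adjusted p = 0.212) and 0.08 ± 0.12 in high glucose (adjusted p = 0.773), and the difference between those values was 0.34 (95% interval -0.00498 to 0.68, adjusted p = 0.999). LRP5 ranged from 82.2 to 149 CPM over the 11 libraries, and its change with siGlut1 was -0.12 ± 0.16 in control medium (adjusted p = 0.738) and -0.20 ± 0.18 in high glucose (adjusted p = 0.562).

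CTNNB1, the effector, was the steadiest member, with a coefficient of variation of 6.80% over the 11 libraries beside a median of 9.14% for 351 genes of like CPM. It measured 452.3 ± 39.4 CPM against 484.0 ± 26.5 CPM with siGlut1 in control medium (SD, n = 3 each), and 422.7 ± 8.62 (n = 2) against 473.3 ± 5.10 CPM (n = 3) in high glucose. The log2 fold change was 0.10 ± 0.07 (adjusted p = 0.532) and 0.16 ± 0.08 (adjusted p = 0.281). Averaged over media it was 0.13 ± 0.05, with a 95% interval of 0.01 to 0.25 and an adjusted p of 0.133.

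Of the 2 TCF and LEF factors among the members, TCF7L2 was the one with enough counts for a test, at 14.1 to 19.9 CPM. Of their relatives outside the 10 members, TCF7L1 averaged 5.80 RPKM and TCF7 0.645 RPKM. The log2 fold change of TCF7L2 with siGlut1 was -0.18 ± 0.11 in control medium (adjusted p = 0.450) and -0.09 ± 0.13 in high glucose (adjusted p = 0.751). LEF1, whose product is both a partner of beta-catenin and a target of the pathway, had 2 counts in each of 3 libraries and 0 in the other 8. This was too little for a test. A limit of 3 read pairs corresponds to 0.0161 to 0.0362 RPKM by library and covers counting error only, so LEF1 was not detectable above that level at this depth. An entry that overlaps LEF1, LOC641518, had 2 counts in 1 library, and the other 9 members overlap no other entry of the table.

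**Figure D3:**
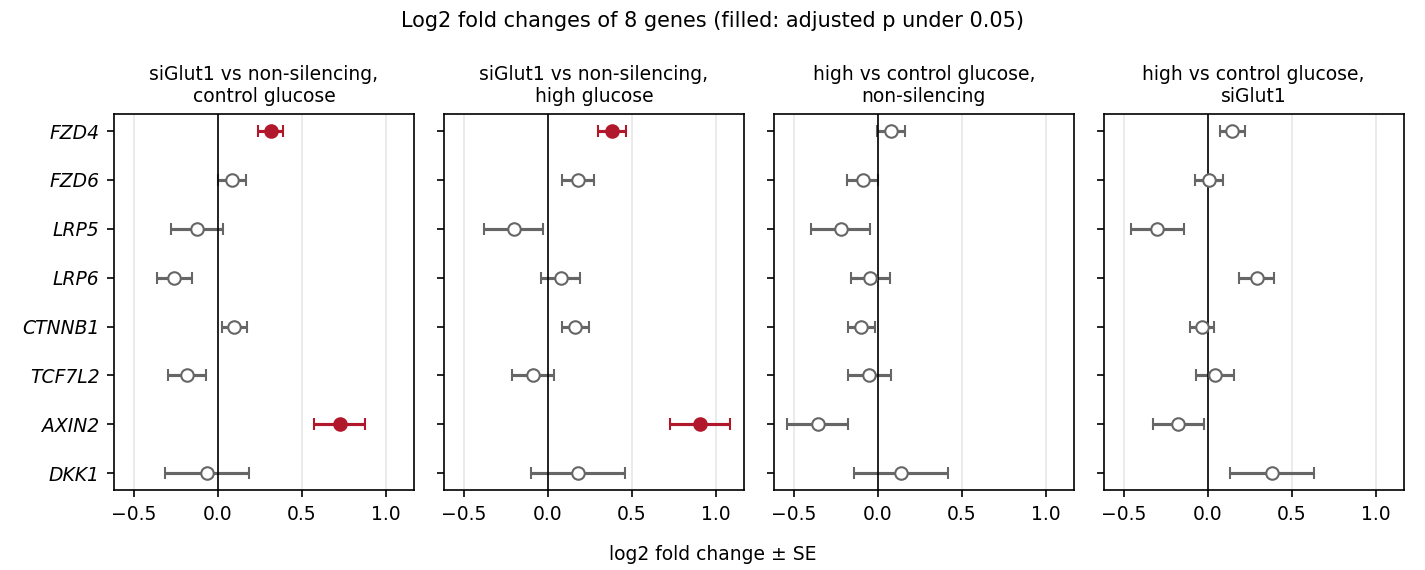
Log2 fold change ± SE of 8 members in the 4 pairwise comparisons, filled where the adjusted p is under 0.05. AXIN2 and FZD4 are filled in both comparisons of siGlut1 and no gene is filled in the comparisons of glucose; APCDD1, with counts too low for a narrow estimate, and LEF1, untested, are not drawn.

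High glucose changed no member past the threshold. With non-silencing siRNA, 0 of 9 members passed in edgeR's quasi-likelihood test, 0 had an unadjusted p under 0.05 and 0 passed in DESeq2. Over all genes 0% passed (0 of 14334, with 774 at an unadjusted p under 0.05 and 33 calls in DESeq2). With siGlut1, 0 of 9 passed in either tool, beside 0.014% of all genes in edgeR and 432 genes in DESeq2, and 1 member, LRP6, had an unadjusted p under 0.05. LRP6 was higher in all 3 siGlut1 high-glucose libraries than in all 3 siGlut1 control libraries, as 22.5% of the genes tested were apart in either direction, by 0.29 ± 0.10 (adjusted p = 0.238). Fold changes in that comparison rose with the length of the gene model (Spearman's rho 0.379 across genes), the LRP6 model is the longest of the members at 10083 bases, and with the trend removed its change was 0.0723 (adjusted p = 0.740). AXIN2 was lower in both non-silencing high-glucose libraries than in all 3 non-silencing control libraries, by a log2 fold change of -0.36 ± 0.18 that did not pass (adjusted p = 0.918), and 17.8% of genes were apart there. FZD4 was apart there too, higher in high glucose, by 0.08 ± 0.08 (adjusted p = 0.971). The comparisons of glucose share the control-medium libraries with those of siGlut1. Averaged over both siRNAs, 0 of 9 members passed in either tool, beside 0.412% of all genes in edgeR and 540 genes in DESeq2, and LRP5, AXIN2 and APCDD1 had an unadjusted p under 0.05 (adjusted p = 0.295, 0.281 and 0.210). No member passed the test of the interaction between siRNA and glucose in edgeR or DESeq2, where 0% of all genes passed in edgeR (394 at an unadjusted p under 0.05), 0 genes passed in DESeq2 and 0 members had an unadjusted p under 0.05.

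DKK1, LRP5 and APCDD1 differed most between libraries of the same group. DKK1 encodes a secreted antagonist that binds LRP5 and LRP6. In control medium it measured 67.3, 43.0 and 87.0 CPM with non-silencing siRNA (replicates 1, 2 and 3) and 58.0, 46.0 and 85.0 CPM with siGlut1. In high glucose it measured 65.2 and 79.8 CPM with non-silencing siRNA and 71.2, 91.8 and 83.1 CPM with siGlut1. Both control-medium libraries numbered 3 were above the other 4 control libraries (43.0 to 67.3 CPM) and inside the range of the high-glucose libraries (65.2 to 91.8 CPM). Its coefficient of variation was 23.4%, beside a median of 9.41% for 2541 genes of like CPM. With siGlut1 DKK1 changed by -0.07 ± 0.25 in control medium (95% interval -0.61 to 0.48, adjusted p = 0.928) and by 0.18 ± 0.28 in high glucose (95% interval -0.43 to 0.79, adjusted p = 0.778). Both intervals include changes of the size seen for FZD4, in either direction.

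LRP5 was lower in both control libraries numbered 3 (92.8 and 111.6 CPM) than in the other 4 control libraries (123.9 to 148.8 CPM), and the 5 high-glucose libraries lay at 82.2 to 121.7 CPM. APCDD1, which encodes a membrane-bound Wnt inhibitor enriched in barrier endothelium, showed the same order at a very low level. It had 10, 36 and 2 counts in non-silencing control 1, 2 and 3, 30, 76 and 6 counts in siGlut1 control 1, 2 and 3, 2 counts in each non-silencing high-glucose library, and 14, 8 and 2 counts in siGlut1 high 1, 2 and 3. In CPM both control libraries numbered 3 (0.0313 and 0.130) were below the other 4 (0.202 to 0.968). With siGlut1 APCDD1 did not pass in control medium (adjusted p = 0.748) or in high glucose (adjusted p = 0.628), and 5 of 11 libraries were at or under 6 counts, which is 3 read pairs.

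Without both control-medium libraries numbered 3, which stood apart for these genes, the averaged comparison of glucose called all 3 of these members. DKK1 was then higher in high glucose by 0.53 ± 0.13 (adjusted p = 0.0237), LRP5 lower by a log2 fold change of -0.38 ± 0.09 (adjusted p = 0.0186), and APCDD1 lower (adjusted p = 0.0147, with a fitted value of -3.12 ± 0.68 that depends on the prior count at such low counts). Of all genes, 18.1% passed in that fit (2583 of 14236), against 0.412% with all 11 libraries. With all libraries the values were 0.26 ± 0.19 for DKK1 (adjusted p = 0.505) and -0.26 ± 0.12 for LRP5 (adjusted p = 0.295). The calls of these 3 members therefore rested on which control libraries entered. The libraries left out lay within the high-glucose range of these genes, so leaving them out widens the difference by construction. These calls are thus no independent test of a glucose effect.

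**Figure D4:**
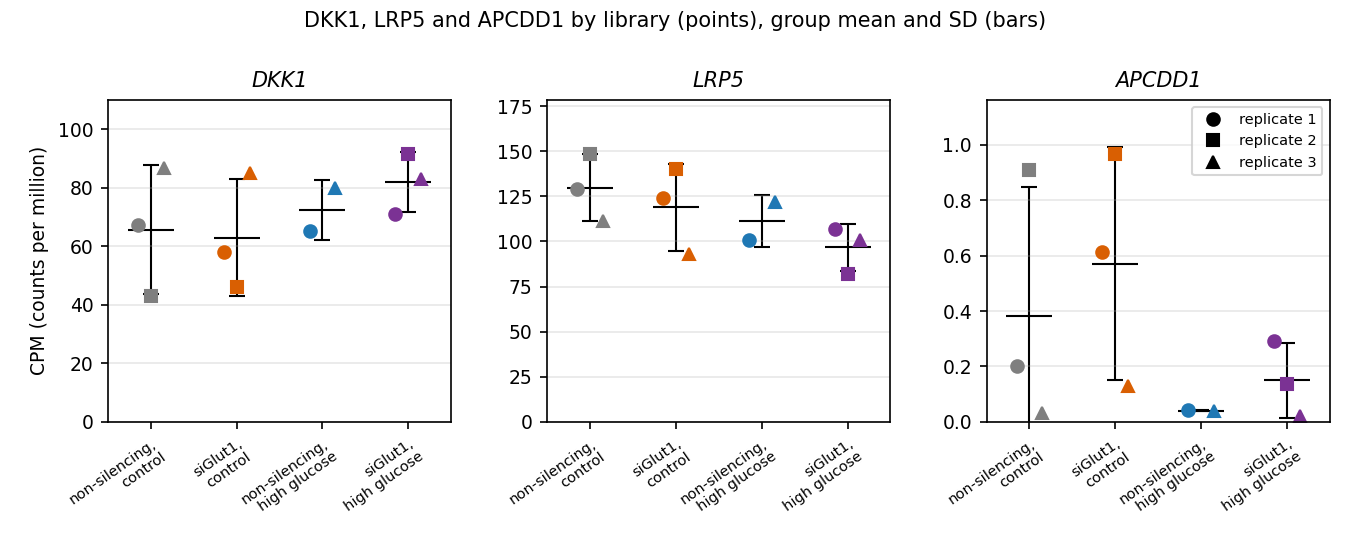
CPM of DKK1, LRP5 and APCDD1 by library (points, marker shape by replicate number), with the group mean and SD (bars, n = 3, with n = 2 in the non-silencing high-glucose group). The triangles of both control groups (replicate 3) are the highest of their group for DKK1, at 85.0 and 87.0 CPM, and the lowest for LRP5 and APCDD1.

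The rest of the pathway was followed in 8 lists that hold 135 further genes of the table, of which 95 were tested. In control medium 2 of the 95 rose with siGlut1 and 2 fell, where 2.96% of all genes tested passed and 1.7% rose. In high glucose 6 of the 95 rose and 1 fell, where 4.11% of all genes passed and 2.46% rose. In each medium the fall included SLC2A1, the target of the siRNA. The median log2 fold change of the 95 was 0.04 in control medium and 0.11 in high glucose. None of the 95 passed with high glucose under either siRNA or in the interaction in edgeR.

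Among ligands, the Wnt cargo receptor WLS was abundant (70.9 RPKM) and the acyltransferase PORCN was at 5.10 RPKM. WNT7A, a ligand of the brain barrier made by neural cells, had 0 counts, and the Norrin gene NDP averaged 0.540 RPKM. None of 10 tested ligands and agonists passed with siGlut1 in either medium. The Norrin co-receptor TSPAN12 (13.7 RPKM) and the Wnt7 co-receptor RECK (9.71 RPKM) were expressed without a call. Among 18 tested receptors, FZD4 in both media and ROR1, a receptor for non-canonical Wnts, in high glucose rose. ROR1 was at 5.001 and 5.53 CPM in the 2 non-silencing libraries and at 8.29, 8.05 and 8.90 CPM in the 3 siGlut1 libraries (log2 fold change 0.68 ± 0.14, adjusted p = 0.0257).

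Among 8 tested extracellular and membrane inhibitors, SHISA2, which retains Frizzled receptors inside the cell, rose in high glucose by 1.01 ± 0.23 (adjusted p = 0.0328), from a low mean of 1.18 to 2.37 CPM. DKK3, the most abundant of that list at 103 RPKM, did not pass in either medium alone but rose on average over media by 0.36 ± 0.09 (adjusted p = 0.0260). In the destruction complex and its regulators, AXIN2 in both media and the Dishevelled genes DVL2 and DVL3 in high glucose rose, the last 2 by 0.36 ± 0.09 (adjusted p = 0.0485) and 0.41 ± 0.10 (adjusted p = 0.0435), out of 24 tested. Among 17 tested nuclear partners, PYGO2, which links beta-catenin to chromatin, rose in both media, from 31.2 ± 2.86 to 41.9 ± 1.199 CPM in control medium (SD, n = 3 each, log2 fold change 0.43 ± 0.08, adjusted p = 0.0177) and by 0.40 ± 0.09 in high glucose (adjusted p = 0.0324).

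General Wnt target genes did not move together. Of 13 tested, AXIN2 rose in both media and CCND1, the cyclin gene that is often listed as a target, fell in control medium. There CCND1 measured 609, 541 and 607 CPM with non-silencing siRNA (replicates 1, 2 and 3) and 428, 388 and 440 CPM with siGlut1 (log2 fold change -0.48 ± 0.09, adjusted p = 0.0206). Its value in high glucose was -0.38 ± 0.10 (adjusted p = 0.0621). Of 13 tested barrier genes downstream of beta-catenin, SLC2A1 alone passed in either medium, with CLDN5 at 34.3 RPKM and the lipid transporter gene MFSD2A at 2.36 RPKM. FOXQ1 of that list had 0 counts, and SLCO1C1 averaged 0.00157 RPKM. Of 8 tested genes of the cadherin-catenin complex, the N-cadherin gene CDH2 rose in both media, by 0.55 ± 0.11 (adjusted p = 0.0288) and 0.74 ± 0.13 (adjusted p = 0.0136). VE-cadherin (CDH5), the main endothelial partner of beta-catenin at junctions, did not pass. With either non-silencing high library or siGlut1 high 2 left out, SLC2A1 was the only 1 of the 7 genes called in high glucose that still passed, and in control medium CCND1, CDH2 and PYGO2 all missed the threshold without siGlut1 control 1.

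Averaged over both media, 15 of the 95 genes rose with siGlut1 and 8 fell, 24.2% beside 14.4% of all genes tested and 2 of 9 members. Those that rose were FZD8, ROR1, DKK3, SHISA2, AXIN1, DVL2, DVL3, TNKS2, PYGO1, PYGO2, TLE1, MYC, SLC7A1, CDH2 and PTPRB. Those that fell were FZD2, LGR4, KREMEN1, CSNK1A1, BTRC, TCF7L1, CCND1 and SLC2A1. Of these, chosen for their values after they were seen, DVL2, DVL3, AXIN1 and MYC had log2 fold changes of 0.33 ± 0.06, 0.37 ± 0.07, 0.20 ± 0.06 and 0.23 ± 0.06. LGR4, a receptor for R-spondins, fell by 0.53 ± 0.11 on the log2 scale, TCF7L1 fell by 0.44 ± 0.13 and FZD2 fell by 0.56 ± 0.15. Calls went in both directions among receptors, inhibitors, destruction complex genes, nuclear partners and targets. Among barrier genes SLC7A1 rose, and the only fall, also counted above, was SLC2A1, the target of the siRNA. Of the 14 endothelial markers, KDR and FLT1 rose with siGlut1 in high glucose (0.44 ± 0.11 and 0.72 ± 0.12), and these 2 with TEK and CLEC14A rose on average over media (TEK by 0.29 ± 0.07, CLEC14A by 0.60 ± 0.11). Of the pericyte-listed genes, RGS5 fell in control medium by 0.34 ± 0.08 on the log2 scale and ANPEP rose in high glucose by 0.38 ± 0.08, and both kept a call in the same direction on average. Over the whole endothelial list the summed level was 1486 to 2006 RPKM with non-silencing siRNA and 1677 to 2026 RPKM with siGlut1 in control medium, and 1659 to 1683 against 1669 to 1937 RPKM in high glucose. The pericyte list, of which 7 of 10 genes were tested, summed to 628 to 750 RPKM against 664 to 712 RPKM in control medium and to 665 to 687 against 667 to 727 RPKM in high glucose. The part of these markers in the changes of AXIN2 and FZD4 was not tested.

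**Figure D5:**
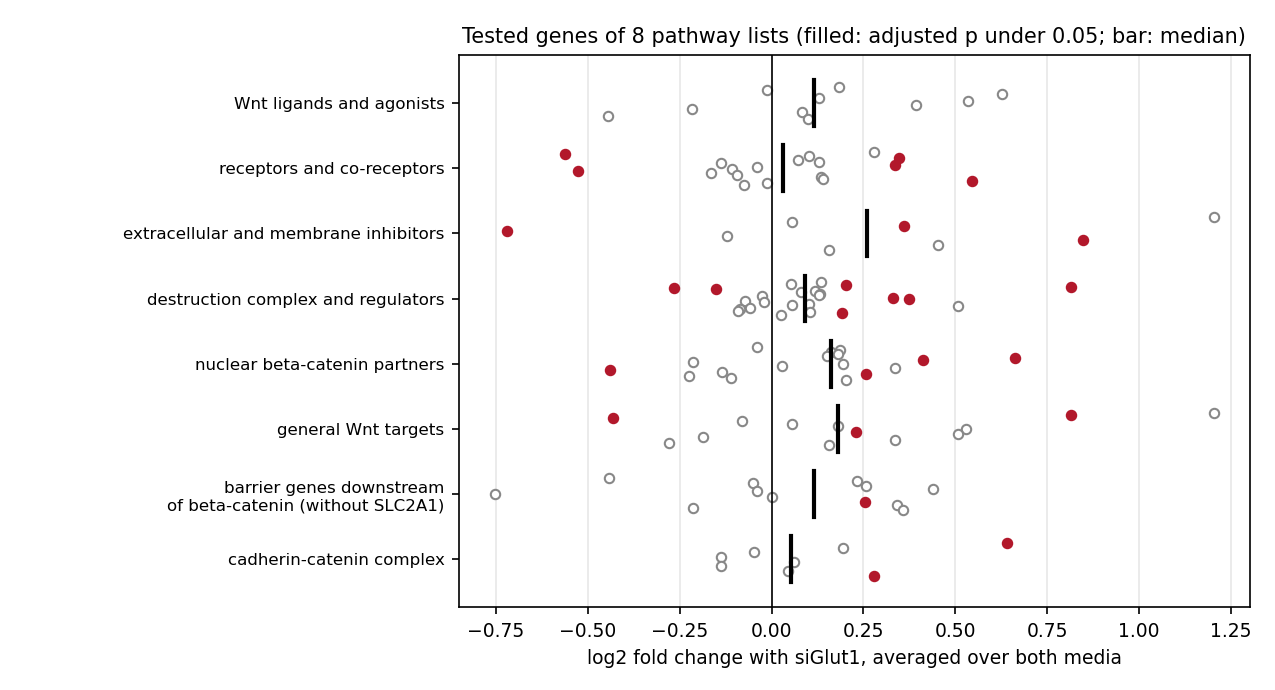
Log2 fold change with siGlut1, averaged over both media, of the tested genes in 8 pathway lists (points, filled where the adjusted p is under 0.05, bar at the list's median). Members are included, a gene in several lists is drawn in each, and SLC2A1 (-1.59) is left out of the barrier list; filled points lie on both sides of 0 in 5 lists.

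The genes whose pattern over the 11 libraries was most like that of AXIN2, by Pearson's r of log2 CPM among 9166 genes with a mean of at least 5 CPM, were KCTD15 (0.984), SLC25A25 (0.982) and CSK (0.978). All 3 rose with siGlut1 in both media, KCTD15 by 0.41 ± 0.07 and 0.53 ± 0.08, a smaller change than that of AXIN2. For FZD4 they were GJC1 (0.974), CDH2 (0.972) and FOXJ3 (0.965), of which CDH2 rose in both media and GJC1 in high glucose (0.38 ± 0.09, adjusted p = 0.0452). These r values describe likeness over libraries that share groups and depth, and carry no test. The genes were picked by that likeness in the same libraries, so their rises with siGlut1 largely follow from the choice and are no separate result.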

How the data were processed

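The labels' protocols name RNeasy columns for RNA and, for libraries, both TruSeq stranded mRNA and SMARTER kits without saying which library got which. The deposited table gives, per the file headers, a count and an RPKM for each gene and sample. The build is hg19 and DESeq2 is named, per the submitters' processing notes, while the sources used here name no aligner, counting tool, strand setting or annotation. The deposited counts are whole numbers that were not normalised. The deposited RPKM values, scaled by the authors for gene length and library size, were used only to compare levels between genes.

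The members and lists were chosen with earlier results of these data known. Of 23398 entries, 101 with a repeated ID were left out. Counts of the remaining 23297 in 11 libraries were analysed with edgeR 4.0.16 in R 4.3.3. Genes were kept by filterByExpr (14334), libraries were scaled by TMM (factors 0.975 to 1.03), and 1 quasi-likelihood model held all 4 groups with no block for replicates (residual degrees of freedom: 7). Tests were two-sided with Benjamini-Hochberg adjustment over all genes tested and a threshold of 0.05. The genes named were all 10 members, SLC2A1, up to 4 genes past the threshold per list and comparison or the 2 most abundant where none passed, and the 3 genes most like each member past the threshold. Levels at or near 0, other named levels and the averaged calls were chosen after their values were seen. Symbols missing from the table were matched through older names (GPR124 for ADGRA2, FAM123B for AMER1). In counts simulated for the comparison of siRNAs in control medium (14142 genes), 95% of 100 genes changed by a log2 value of 1 and 100% of 100 changed by 2 were recovered, and 11 unchanged genes were called. Changes under a log2 value of 1, the range of the member calls, were not simulated. The simulated spread followed the trend over genes by level, not each gene's own spread, and changes were placed in genes above 1 CPM. Recovery may therefore be lower for genes that spread more, such as DKK1 and APCDD1. Alternatives were DESeq2 1.42.0, its size factors in edgeR, 2 other filters, a replicate block, only the groups compared, all 12 columns, both control libraries numbered 3 left out, each library left out in turn and, added after seeing the data, counts halved and the trend on gene length removed.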

Additional observations from a re-analysis of the deposited data

How the results depend on the processing

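With DESeq2, genes past the threshold numbered 1050 and 1318 with siGlut1 in control and high glucose (424 and 589 in the fit reported), 33 and 432 with high glucose under non-silencing siRNA and siGlut1 (0 and 2), and 540 for high glucose averaged (59). With all 12 columns these were 824, 1807, 11, 36 and 427, and siGlut1 averaged gave 3182 (2066). Without replicate 3 of both control-glucose groups they were 247, 1674, 48, 735 and 2583, and with only the groups compared 70 and 1149 with siGlut1 and 0 for high glucose under siGlut1. Leaving out 1 library gave 131 to 343 genes with siGlut1 in control glucose, 6 to 1077 in high glucose (6 without a non-silencing high-glucose library), 1000 to 2497 averaged, and 0 to 2, 0 to 17 and 0 to 836 for high glucose under non-silencing siRNA, under siGlut1 and averaged. Members past the threshold with siGlut1 in control glucose (2) were 1 with DESeq2 size factors, 0 with only the groups compared, 0 without replicate 3 of both control-glucose groups and 0 to 1 with 1 library left out. In high glucose (2) they were 1 with the trend on gene length removed and 0 to 2 with 1 library left out. For high glucose averaged (0) they were 3 without replicate 3 of both control-glucose groups.

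Several member values that did not pass the test changed sign when 1 library was left out. With siGlut1 in control glucose these were DKK1 (-0.07 as reported, -0.34 to 0.19) and LRP5 (-0.12, -0.26 to 0.0252). In high glucose it was TCF7L2 (-0.09, -0.17 to 0.00101), and LRP6 (0.08) was -0.0986 with the length trend removed. Averaged over media it was DKK1 (0.06, -0.0824 to 0.18). With high glucose under non-silencing siRNA these were DKK1 (0.14, -0.0800 to 0.39), FZD6 (-0.09, -0.14 to 0.00160), LRP6 (-0.04, -0.12 to 0.0417) and TCF7L2 (-0.05, -0.14 to 0.0352). Under siGlut1 they were FZD6 (0.00689, -0.0553 to 0.0508, and -0.00843 with the length trend removed) and TCF7L2 (0.0425, -0.0509 to 0.13, and -0.0433 without replicate 3 of both control-glucose groups). For high glucose averaged they were FZD6 (-0.04, -0.0732 to 0.00404, and 0.00471 without replicate 3 of both control-glucose groups) and TCF7L2 (-0.00431, -0.0509 to 0.0424). TCF7L2 was also 0.0016 with DESeq2 size factors, 0.0017 in DESeq2, 0.0104 with the replicate block and 0.0014 with counts halved. For the interaction they were APCDD1 (0.97, -0.72 to 1.62), CTNNB1 (0.07, -0.00680 to 0.12), DKK1 (0.24, -0.00890 to 0.52), LRP5 (-0.08, -0.23 to 0.0615) and FZD4 (0.07, -0.00893 to 0.13, and -0.0656 with the length trend removed). The cause was not tested.

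The replicate numbers were not taken to pair the samples, since the labels name no shared source. Not every pair of libraries with the same number deviated together, but this cannot decide the question. Deviations within a group cancel out, so the values of pairs with the same number and with different numbers are tied. Where pairs with the same number are positive, pairs with different numbers are pushed to negative values. With n = 2 the deviations of a group mirror each other. The correlation of deviations from group means was -0.25 to 0.54 over 15 pairs with the same number (median 0.12). It was -0.44 to 0.26 over 30 pairs with different numbers (median -0.0814). In control medium it was 0.0936, 0.35 and 0.54 for numbers 1, 2 and 3, and non-silencing control 1 correlated more with siGlut1 control 2 (0.15) than with siGlut1 control 1. With the replicate block, 560 and 597 genes passed with siGlut1 in control and high glucose, and AXIN2 and FZD4 passed in both (adjusted p 0.0403 and 0.0350, then 0.0358 and 0.0222). Among the list genes, DVL2, DVL3 and PYGO2 missed the threshold in high glucose with the block (adjusted p 0.0734, 0.0558 and 0.0502). AXIN2 in control glucose missed it in 10 of 21 alternatives and FZD4 in 13 of 21, in high glucose in 4 and 6 of 21. In the 20 alternatives of the averaged effect both passed in every one. Depth limits AXIN2 and above all APCDD1 and LEF1.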
